A study of Mus musculus with 63 samples.

Results

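The nuclear genes of oxidative phosphorylation were described in single mouse cells sorted by the surface phenotype of common helper innate lymphoid progenitors (CHILPs), marrow precursors of the helper innate lymphoid cells (ILCs). Members were chosen by gene symbol alone and not by any measured value. A symbol had to begin with Ndufa, Ndufb, Ndufc, Ndufs, Ndufv, Uqcr, Atp5 or Cox4 to Cox8, or to be one of Sdha, Sdhb, Sdhc and Sdhd, and assembly factors named Ndufaf and rows named as pseudogenes were excluded. This gave 85 of the 23420 rows of the table, with 38 members for complex I, 4 for complex II, 8 for complex III, 18 for complex IV and 17 for complex V.

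Oxidative phosphorylation is the last stage of respiration. Complexes I and II of the inner mitochondrial membrane pass electrons from NADH and succinate to ubiquinone, complex III passes them on to cytochrome c, and complex IV to oxygen. Complexes I, III and IV pump protons, and complex V, the ATP synthase, uses the resulting gradient to make ATP. Most subunits are encoded in the nucleus and imported, while the remaining core subunits are encoded in mitochondrial DNA, for which 13 genes were listed and 0 rows were found in the table, so that they were not analysed here.

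One group, WT, held 29 libraries of C57BL/6 CHILPs sorted as CD45.2+ and lineage-negative, positive for CD127 and the integrin α4β7, low or negative for Sca1 and negative for CD135 and CD25. The other, iR9, held 34 libraries of cells with that phenotype that also carried GFP, which according to the series title derive from pluripotent stem cells. They were taken from the marrow of Rag2-/-Il2rg-/- mice, which make no lymphocytes or ILCs of their own, 4 weeks after the transplantation. The strain label of iR9 is also C57BL/6, and neither ages nor numbers of animals are given in the sources used here. No animal or culture is named, so each group is 1 sample of many cells: all differences are given as descriptions beside the SD over cells, without any test between groups.

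Titles of iR9 libraries ended in the suffix 1 (3 libraries), 2 (15) or 3 (16), and all WT titles ended in 1. For 15 cell numbers both suffix 2 and suffix 3 were present. Over the measured members, the Pearson r of such a same-number pair lay between 0.958 and 0.991, against 0.0957 to 0.651 for the 225 pairs of different numbers. The 2 libraries of a pair were therefore averaged, which left 19 iR9 cells, of which 3 had suffix 1. Of 707 member values at 10 TPM or more in either library of a pair, 686 (97.0%) reached it in both, with a median absolute difference of 0.071 on the log2 scale. The suffix and the source of the cells cannot be told apart for most iR9 cells.

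Values were TPM, transcript abundances corrected for transcript length, whose total is equal in all libraries, so read depth is unknown and a level is a share of the library. The number of genes at 1 TPM or more ran from 1189 to 5939 in WT cells, with a median of 2938, and from 1514 to 3238 in iR9 cells, with a median of 1732. Of the ILC progenitor markers, Id2 reached 10 TPM in all 29 WT and all 19 iR9 cells and Il7r in 25 and 16, while Gata3 did so in 24 and 8, Tcf7 in 22 and 5, and Tox in 20 and 1. Of 10 such markers 5 (50%) were lower and 1 (10%) higher by at least 1 on the log2 scale used below. The shares of all measured genes were 44.5% and 5.15%, so the lower count is near the general one. The summed level of the 10 markers was 277 to 28974 TPM in WT and 2809 to 20112 TPM in iR9 cells. For iR9 cells, Gata3, Tcf7 and Tox go against the label by the number of cells at 10 TPM, and the cells are called by their label only. The iR9 cell 12-1 carried 9 of 10 mast cell and basophil markers at 10 TPM or more, summing to 245176 TPM. In 4 WT cells at least 3 myeloid or mast cell markers reached that level, and 5 other WT cells had at least 10 of 20 cell cycle genes at it. Of the 4, 26-1 and 21-1 had 130843 and 37305 TPM of myeloid genes and 159859 and 171094 TPM of dendritic cell genes. Each had only 3 of 10 ILC progenitor markers at 10 TPM, so markers go against the label in these WT cells too. Among other WT cells, dendritic cell genes summed to 81945 TPM in 17-1 and 30579 TPM in 3-1, with 9 and 6 progenitor markers at 10 TPM. The WT cell 5-1 had 4 such markers at 10 TPM and the lowest summed level of the 10, 277 TPM. In 28-1 and 4-1 the mast cell and basophil genes summed to only 67.3 and 66.1 TPM.

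A gene counted as measured if it had 1 TPM or more in 10% or more of the 48 cells, which 7421 genes met. Of the 85 members, 78 met it. The mean of log2(TPM + 1) over cells was compared between groups, as iR9 minus WT, and a difference of at least 1 was counted. This scale understates the change of low genes. Over all measured genes the median difference was -0.88, with 44.5% lower by at least 1 and 5.15% higher by at least 1 in iR9 cells. Of these 7421 genes 6041 had a lower and 1380 a higher mean in iR9 cells, so a lower mean was usual.

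Each complex except complex II held members with a lower and members with a higher mean in iR9 cells, and in complex V most were lower. Of the 78, 46 had a lower and 32 a higher mean in iR9 cells. The mean was lower by at least 1 for 22 members (28.2%, against 44.5% of all genes) and higher by at least 1 for 11 (14.1%, against 5.15% of all genes). Of the members, 74 were found at 1 TPM or more in at least 50% of cells. Among all 1507 genes that were, 47.4% were lower and 12.1% higher by at least 1. The members' 14.1% lies nearer to that 12.1% than to 5.15%. The shares of all genes set beside each complex below also hold genes found in fewer cells. The median difference of the members was -0.35. It turned above 0 under 6 other treatments of the data, among them a quantile normalization (0.59). Another was the restriction to cells within the range of gene numbers shared by the groups (0.54). That range, 1514 to 3238 genes, is the range of the iR9 cells, and numbers were not matched within it. Its upper end was set by the iR9 cell 14-1, while the iR9 median was 1732. No direction is therefore given for the members as a whole. By complex the median was -0.20 for complex I, -1.28 for complex II, 0.45 for complex III, 0.31 for complex IV and -0.91 for complex V. The medians of complexes I, III, IV and V changed sign under at least one alternative, and the median of complex II under none.

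Over 18 alternative treatments of the data, 27 members kept the sign of their difference. Of these, 12 were lower in iR9 cells in every setting, namely Ndufb5, Ndufv2, Ndufa11, Ndufs4, Ndufb4, Sdha, Uqcrfs1, Uqcrq, Atp5sl, Atp5f1, Atp5a1 and Atp5g2. The other 15 were higher in every setting, namely Ndufb11, Ndufb6, Ndufa7, Ndufs3, Ndufa3, Ndufa13, Ndufc2, Uqcr11, Uqcrb, Cox6b1, Cox6a1, Cox7c, Cox6c, Atp5j and Atp5j2. Among 7333 genes treated the same way, 11.8% were lower and 4.81% higher in every setting. The members' counts are 12 and 15 of 78, and the other 51 had a mixed sign.

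**Figure D1:**
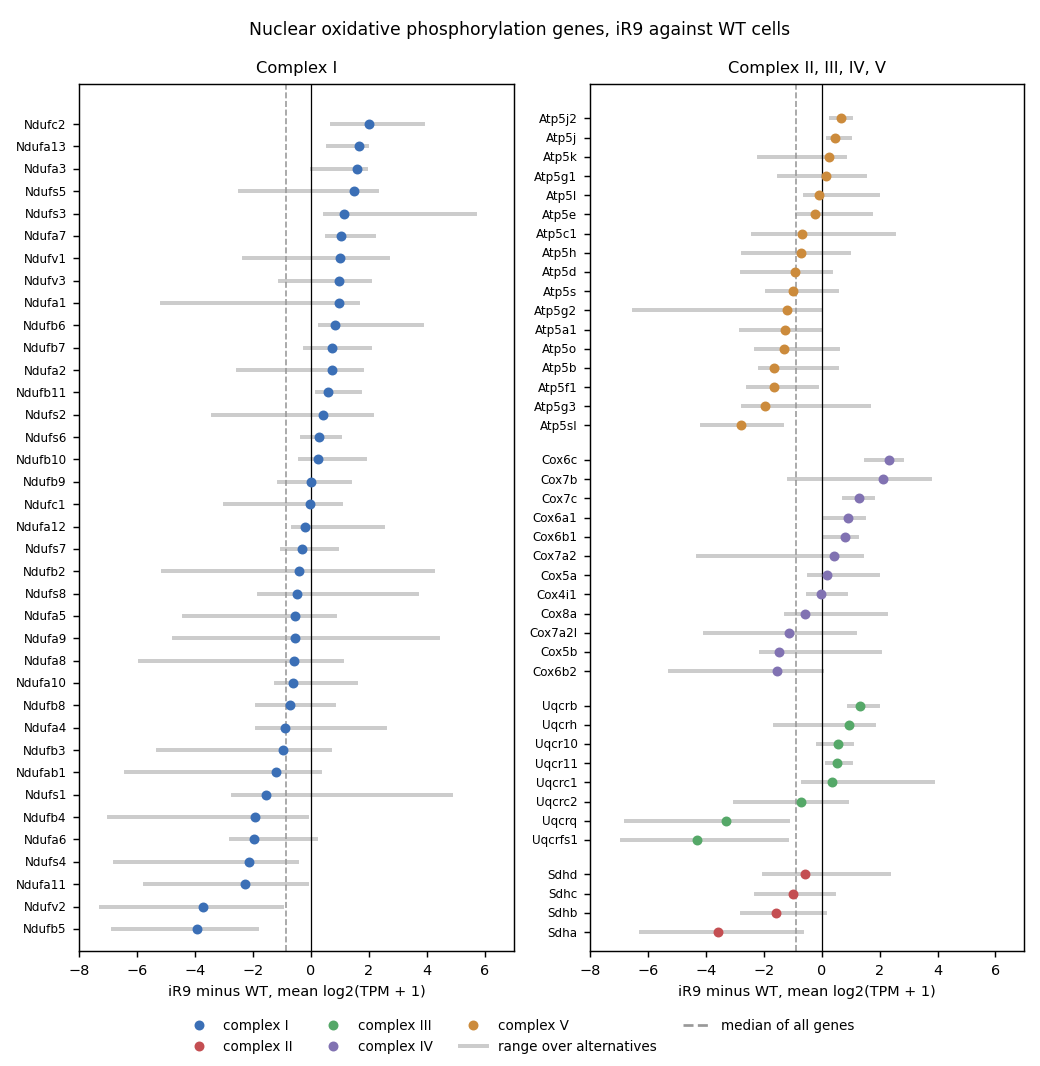
Difference in mean log2(TPM + 1), iR9 minus WT, for the 78 measured members, with complex I in the left panel and complexes II to V in the right one. Points are the values of all 29 WT and 19 iR9 cells, grey bars the range over the alternatives (leaving out single cells not included), and the dashed line the median of all measured genes at -0.88. Uqcrfs1 (-4.32) and Ndufb5 (-3.94) lie lowest, Cox6c (2.33) and Cox7b (2.1) highest, and only the bar of Cox7b crosses 0 among these.

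Complex I, the NADH dehydrogenase, has a catalytic core and a shell of supernumerary subunits. Of its 37 measured members 21 had a lower and 16 a higher mean in iR9 cells, 8 lower and 7 higher by at least 1. These shares are 21.6% and 18.9%, against 44.5% and 5.15% of all genes. Among the 7 nuclear core subunits, which include those with the flavin and the iron-sulfur clusters, 4 were lower and 3 higher. Ndufv2, a core subunit with an iron-sulfur cluster (GRCm38, chromosome 17, 66078638 to 66101559), lay between 0 and 1465 TPM in WT cells with a median of 317, and between 0 and 1006 TPM in iR9 cells with a median of 1.09. It reached 10 TPM in 23 of 29 WT cells (79.3%, exact Clopper-Pearson 95% interval 60.3 to 92.0%) and in 6 of 19 iR9 cells (31.6%, 12.6 to 56.6%). Such intervals hold the counting error alone. Its mean was 7.09 ± 3.08 for WT (SD, n = 29 cells) and 3.36 ± 4.09 for iR9 (SD, n = 19 cells), a difference of -3.73. The groups overlapped: the 6 iR9 cells with the transcript, at 343 TPM or more, were within the WT range, and the other 13 were below 10 TPM.

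Ndufb5, a supernumerary subunit of the membrane arm (chromosome 3, 32736990 to 32751566), had a median of 201 TPM in WT cells (0 to 940.5) and of 0.78 TPM in iR9 cells (0 to 588). It was at 10 TPM or more in 21 WT cells (72.4%, 52.8 to 87.3%) and in only 4 iR9 cells (21.1%, 6.05 to 45.6%), with a difference of -3.94. The 4 iR9 cells lay within the WT range, with a median of 349 TPM against 316 TPM among the 21 WT cells. Ndufa11, a membrane-arm subunit (chromosome 17, 56717767 to 56722141), had medians of 87.6 TPM in WT (0 to 322) and 0.67 TPM in iR9 cells (0 to 424), with a difference of -2.29. Its difference was only -0.13 as a log2 ratio of mean TPM.

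At the other end, Ndufc2, Ndufa13 and Ndufa3 were found in nearly all iR9 cells. Ndufa13, also known as GRIM-19 (chromosome 8, 69894180 to 69902558), was at 10 TPM or more in 25 of 29 WT and in 19 of 19 iR9 cells. It ran from 0 to 3429 TPM with a median of 301 in WT cells, and from 142 to 1977 TPM with a median of 519 in iR9 cells. Its SD over cells was 3.02 in WT and 1.07 in iR9 cells, and the difference in means was 1.64. Ndufa3 (chromosome 7, 3617373 to 3620327), the member of complex I with the highest mean level over all cells, likewise had no iR9 cell below 139 TPM, with a median of 1394 against 483 TPM in WT cells and a difference of 1.58. With the 3 suffix 1 cells alone that difference was 0.03. Ndufc2 (chromosome 7, 97400003 to 97407802) was at 10 TPM or more in 22 WT and 17 iR9 cells, with medians of 319 and 708 TPM and a difference of 1.99. Ndufa4, whose protein is now placed in complex IV although its symbol puts it under complex I here, differed by -0.90, and Ndufs6 by 0.27, each within the SD over cells of either group and each with a mixed sign over the alternatives.

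Complex II, succinate dehydrogenase, is the enzyme that the chain shares with the citric acid cycle, and all 4 of its subunits are nuclear. All 4 had a lower mean in iR9 cells, with Sdha and Sdhb lower by at least 1. That is 50% of the complex, near the 44.5% of all genes, most of which also had a lower mean. Sdha, the flavoprotein that oxidises succinate (chromosome 13, 74322254 to 74350280), lay between 0 and 1067 TPM in WT cells with a median of 137, and between 0 and 681 TPM in iR9 cells with a median of 0.82. It was at 10 TPM or more in 19 WT cells (65.5%, 45.7 to 82.1%) and in 3 iR9 cells (15.8%, 3.38 to 39.6%), which were 14-1 at 179 TPM, 20 at 681 TPM and 6 at 57.4 TPM. Its mean was 5.38 ± 3.63 for WT (SD, n = 29 cells) and 1.78 ± 2.68 for iR9 (SD, n = 19 cells), a difference of -3.60. Sdha was lower in each of the 18 alternatives, with a range of -6.25 to -0.67.

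The other 3 subunits were less far apart. Sdhb, the iron-sulfur subunit (chromosome 4, 140961203 to 140979193), differed by -1.59, although its medians were 600.3 TPM in WT and 642 TPM in iR9 cells, and the sign turned when medians over cells were compared (0.10). It was at 10 TPM or more in 26 WT and 11 iR9 cells. The membrane anchors Sdhc and Sdhd, which hold the ubiquinone site, differed by -0.98 and -0.57. Sdhc turned to 0.43 in the cells within the iR9 range of gene numbers, and Sdhd to 2.31 with the suffix 1 cells alone. The per-cell mean of the 4 subunits had a median of 6.66 in WT cells (1.93 to 9.07) and of 3.54 in iR9 cells (1.74 to 7.79), and 16 of 19 iR9 cells lay below the WT median. Of the 16 WT cells whose number of genes fell in the range of the iR9 cells, the median was 4.73, and 11 of 19 iR9 cells lay below it.

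Complex III, the cytochrome bc1 complex, split by subunit. Of 8 members, 3 had a lower and 5 a higher mean in iR9 cells, with 25% lower and 12.5% higher by at least 1 against 44.5% and 5.15% of all genes. Uqcrfs1, the Rieske iron-sulfur protein that passes an electron towards cytochrome c (chromosome 13, 30540308 to 30545362), had the lowest difference of all members, -4.32. It lay between 0 and 1738 TPM in WT cells with a median of 241, and between 0 and 669.8 TPM in iR9 cells with a median of 1.05. It was at 10 TPM or more in 22 WT cells (75.9%, 56.5 to 89.7%) and in 2 iR9 cells (10.5%, 1.3 to 33.1%), namely 14-1 at 629.9 TPM and 19 at 669.8 TPM. At 1 TPM or more the counts were 23 WT and 11 iR9 cells. Its means were 6.20 ± 3.78 for WT (SD, n = 29 cells) and 1.88 ± 2.72 for iR9 (SD, n = 19 cells), and the range over alternatives was -6.89 to -1.19.

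Uqcrq, a small subunit (chromosome 11, 53427922 to 53430831), had a median of 704 TPM in WT cells (0 to 5860) and of 5.50 TPM in iR9 cells (0.68 to 1937), with a difference of -3.30. It reached 10 TPM in 25 WT and 8 iR9 cells. The 4 highest cells, 28-1, 24-1, 2-1 and 18-1, were all WT, with at least 4883 TPM. Uqcrc2, a core protein, differed by -0.70, with low medians of 1.97 and 1.05 TPM. The small subunits Uqcrb and Uqcrh went the other way, by 1.33 and 0.95. Uqcrb was higher in every alternative, while Uqcrh turned to -1.62 with the 2 suffix 1 cells without mast cell markers. Uqcrb, known as the ubiquinone-binding protein (chromosome 13, 66900617 to 66905378), had medians of 637 TPM in WT (0 to 2477) and 1213 TPM in iR9 cells (3.82 to 5187), and was at 10 TPM or more in 25 and 17 cells. Uqcr11 had the highest mean level of the complex, with medians of 615 and 1104 TPM and a difference of 0.53.

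Complex IV, cytochrome c oxidase, has 3 mitochondrially encoded core subunits, which were not analysed here, and a set of nuclear ones, several with tissue-restricted isoforms. Of the 10 widely expressed nuclear subunits 3 had a lower and 7 a higher mean in iR9 cells. Over all measured members of the complex 25% were lower and 25% higher by at least 1, against 44.5% and 5.15% of all genes. Cox6c (chromosome 15, 35925886 to 35938246) had the largest positive difference of all members, 2.33. It lay between 0 and 1738 TPM in WT cells with a median of 568, and between 6.56 and 4816 TPM in iR9 cells with a median of 1697. It was at 10 TPM or more in 25 WT cells (86.2%, 68.3 to 96.1%) and in 18 iR9 cells (94.7%, 74.0 to 99.9%), so that the groups differed in the level more than in the share of cells. Its mean was 7.90 ± 3.47 for WT (SD, n = 29 cells) and 10.23 ± 2.06 for iR9 (SD, n = 19 cells), and the range over alternatives was 1.52 to 2.78. Cox7b (X chromosome, 106015700 to 106022450) differed by 2.1, with medians of 109 and 419 TPM, but was at 0 TPM in the iR9 cell 17-1 and the difference was -1.13 with only the 2 suffix 1 cells without mast cell markers.

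Cox6a1, the member with the highest mean level of all 85, had a median of 993 TPM in WT cells (3.22 to 3145) and of 2125 TPM in iR9 cells (16.2 to 6933), with a difference of 0.90. It was at 10 TPM or more in 27 WT and in 19 iR9 cells. Cox6b1 differed by 0.80, Cox7a2 by 0.44, Cox4i1 by -0.03 and Cox8a by -0.57, all within the SD over cells of either group. Cox7a2 turned to -4.27 with the suffix 1 cells alone. Cox5b, at the matrix side of the enzyme (chromosome 1, 36691449 to 36693681), differed by -1.47, with medians of 490.0 and 527 TPM, and its sign turned under 3 alternatives. Cox7a2l, a factor of respiratory supercomplexes, differed by -1.14 and by 1.14 after quantile normalization.

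The isoforms known from muscle, testis, lung or hypoxic tissue were rarely found. Ndufa4l2, Cox7b2, Cox8b and Cox8c were listed at 0 in every cell, and Cox4i2 stayed below 1 TPM. Cox7a1 reached 46.1 TPM in 1 WT cell, and Cox6a2, the isoform of heart and skeletal muscle, 7069.5 and 1187 TPM in the WT cells 5-1 and 9-1. These 7 isoforms are the members that did not count as measured. Cox6b2, known from testis, was at 1 TPM or more in 8 WT cells, between 1.05 and 406 TPM, and listed at 0 in all 19 iR9 cells, so it counted as measured through WT cells alone.

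Complex V, the ATP synthase, lay near genes in general on the lower side. Of 17 members, 13 had a lower and 4 a higher mean in iR9 cells, where 6041 of all 7421 genes had a lower one. Of the complex 7 members (41.2%) were lower and 0 higher by at least 1, against 44.5% and 5.15% of all genes, and its median of -0.91 was close to their -0.88. All 5 subunits of the F1 head and central stalk were lower, with a median of -0.91. Among these, Atp5b, the catalytic beta subunit (chromosome 10, 128083273 to 128090391), had a median of 1000.2 TPM in WT (1.87 to 2966) and of 348 TPM in iR9 cells (1.93 to 1795), with a difference of -1.64. Atp5f1, the b subunit of the peripheral stalk (chromosome 3, 105942698 to 105960099), had medians of 633 and 194 TPM and a difference of -1.66. The 3 genes Atp5g1, Atp5g2 and Atp5g3 encode the same mature subunit c of the rotor ring, and differed by 0.16, -1.20 and -1.97. Atp5g1 turned to -1.48 with the suffix 1 cells alone. Atp5g2 was found in the fewest cells of these, with 10 TPM or more in 17 WT and 8 iR9 cells, against 25 and 16 for Atp5g1 and 25 and 11 for Atp5g3.

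Atp5j and Atp5j2 were the members of complex V with the highest positive differences, 0.45 and 0.68, and Atp5j (chromosome 16, 84827866 to 84835625) also had the highest mean level of the complex, with medians of 767 and 1097 TPM. Atp5sl had the most negative one, -2.79, with 10 TPM or more in 14 WT cells and in 1 iR9 cell, number 15 at 342 TPM. Its protein is no ATP synthase subunit despite the symbol, and is known as an assembly factor of complex I. The per-cell mean over complex V had a median of 7.60 in WT (2.52 to 8.88) and of 6.23 in iR9 cells (4.51 to 7.70), with 18 of 19 iR9 cells below the WT median. Against the 16 WT cells within the iR9 range of gene numbers, 10 of 19 were below a WT median of 6.48. As a log2 ratio of mean TPM, the median difference of the complex was 0.16.

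**Figure D2:**
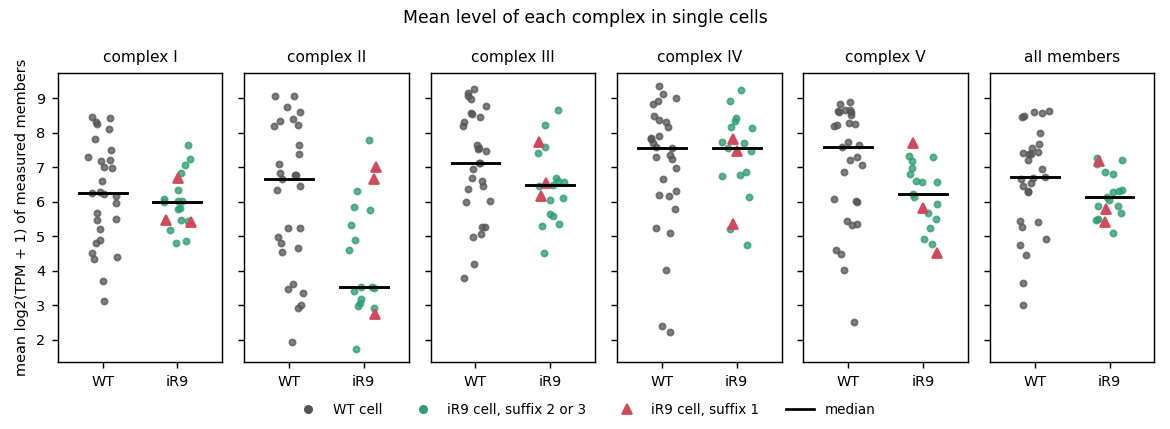
Mean of log2(TPM + 1) over the measured members of each complex and over all 78, with 1 point per cell for 29 WT cells, 16 iR9 cells of suffix 2 or 3 and 3 iR9 cells of suffix 1 (triangles), and a bar at each group's median. The medians lie at 6.66 and 3.54 for complex II and at 7.60 and 6.23 for complex V, while for complex IV both are near 7.6, and the groups overlap in every panel.

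The groups differed more in low values than in values of 0. Of all member values in WT cells 17.6% were at 0, 6.94% between 1 and 10 TPM and 68.8% at 100 TPM or more. In iR9 cells 14.2% were at 0, 19.6% between 1 and 10 TPM and 59.6% at 100 TPM or more. The values between 1 and 10 TPM made up 21.5% in the averaged cells and the lone suffix 3 cell, and 9.40% in the suffix 1 cells. At 1 TPM or more, a median of 84.6% of the measured members was found in a WT cell (46.2 to 100%) and 82.1% in an iR9 cell (73.1 to 89.7%). At 10 TPM or more the medians were 80.8% and 61.5%. Over all measured genes these medians were 36.3% and 22.4% at 1 TPM or more, and 31.3% and 17.4% at 10 TPM or more. By these medians, a larger share of the members than of genes in general was found in a cell of either group.

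By complex, the median share of measured members at 10 TPM or more was 75.7% in WT and 59.5% in iR9 cells for complex I, 75% and 25% for complex II, 75% and 62.5% for complex III, 83.3% and 75% for complex IV and 82.4% and 58.8% for complex V. Complex II thus had the widest and complex IV the narrowest gap. With 4 members, however, the share of complex II in a cell moves in steps of 25%. The shares were not set against the 16 WT cells within the iR9 range of gene numbers.

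**Figure D3:**
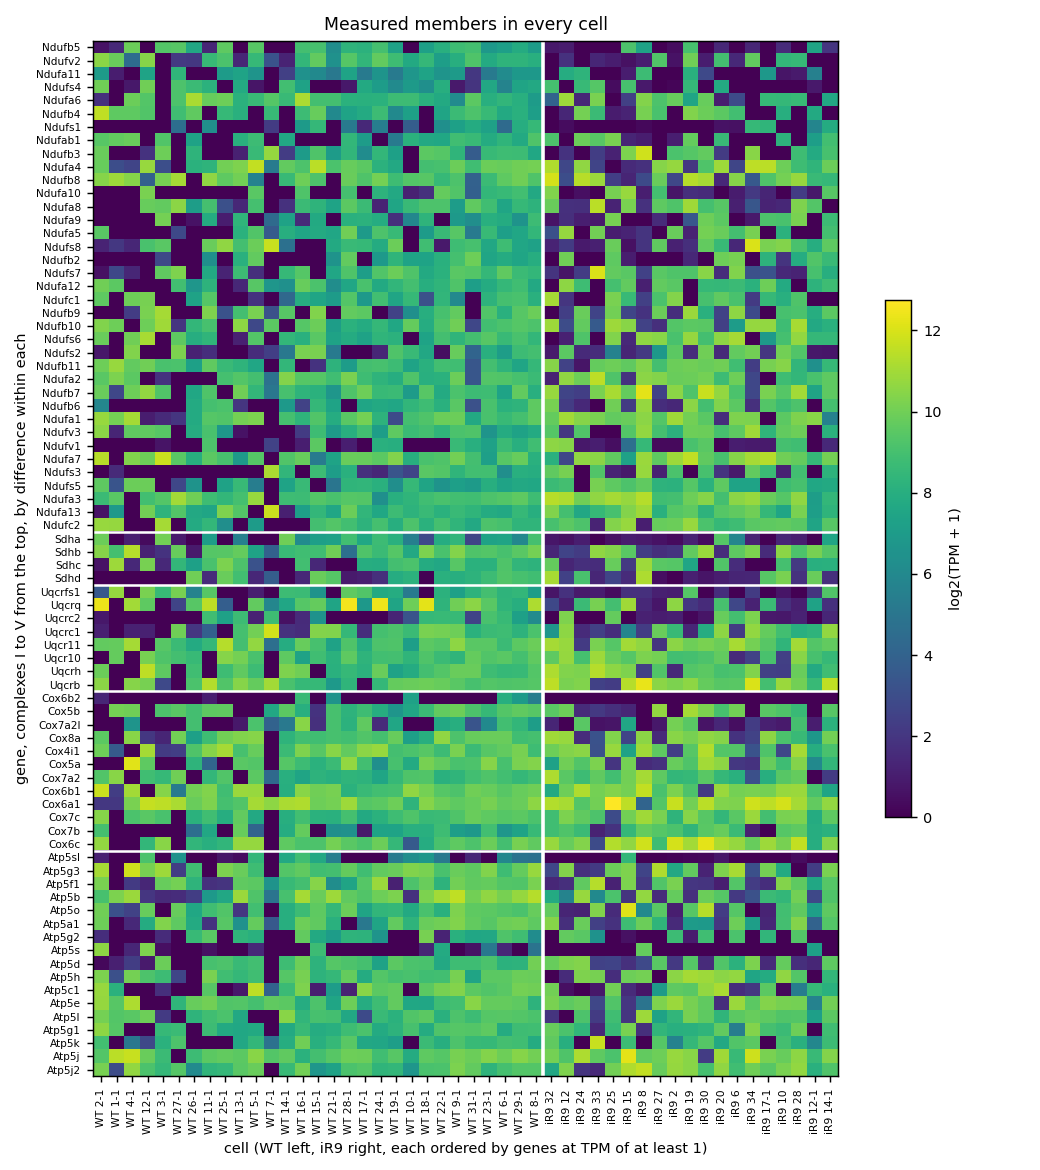
Level of the 78 measured members as log2(TPM + 1), shown by colour, in each of 29 WT cells (left) and 19 iR9 cells (right), with cells ordered within a group by the number of genes at 1 TPM or more. Rows run from complex I at the top to complex V, ordered by difference within each. Members such as Uqcrfs1 and Sdha are dark across most iR9 columns, while Cox6c and Ndufa3 are bright across nearly all.

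Where a member was found, its level was usually higher in iR9 cells. Among cells at 10 TPM or more, taking members with at least 5 such cells in each group, the median TPM was higher in iR9 cells for 65 of 71 members (91.5%), against 80.4% of 1739 genes compared in the same way. The median log2 ratio was 0.80 for the members and 0.81 for those genes, so the size did not stand apart from them. All 35 members of complex I, all 3 of complex II, 5 of 7 of complex III, 10 of 11 of complex IV and 12 of 15 of complex V were higher. The 6 exceptions were Atp5b, Atp5a1, Uqcrq, Uqcrc1, Cox4i1 and Atp5c1, with log2 ratios between -0.93 and -0.04.

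The summed TPM gives the share of the library that went to these genes. Over all members it had a median of 35362 TPM in WT cells (19714 to 63071) and of 47545 TPM in iR9 cells (16884 to 67973), a ratio of medians of 1.34. Of the 19 iR9 cells 18 were above the WT median, and the exception was 12-1, the cell with mast cell markers. The suffix 1 cells without it had 38572 and 38991 TPM, and the 16 other iR9 cells a median of 49640.2 TPM. The ratio was 1.36 with the 16 WT cells within the iR9 range of gene numbers. It was 1.37 once the 5 cells with markers of the myeloid or mast cell lists were left out. Without the 5 WT cells with cell cycle genes it was 1.38. The sum was thus higher in iR9 cells while the median difference of the members on the log2 scale was -0.35.

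The complexes contributed unequally to that sum. Complex I had a median of 13015 TPM in WT and 19518 TPM in iR9 cells, complex III of 4702 and 5134 TPM, complex IV of 6934 and 10962 TPM and complex V of 8011 and 10076 TPM. For complex II it was 1431 TPM in WT and 1099 TPM in iR9 cells, and 12 of 19 iR9 cells lay below the WT median. As a share of the members' sum, complex I had 36.8% in WT and 44.1% in iR9 cells, complex IV 19.5% and 22.3%, complex III 12.5% and 11.2%, complex V 25.1% and 20%, and complex II 4.06% and 2.30%. Of the iR9 cells 17 of 19 were above the WT median for complex I, 15 of 19 below it for complex V and 14 of 19 below it for complex II. Against the 16 WT cells within the iR9 range of gene numbers, complex I had 40.1% in WT cells, with 13 of 19 iR9 cells above. Complex V had 20.9% there with 11 of 19 below, and complex II 4.07% with 14 of 19 below. The gap was thus narrower there for complexes I and V.

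**Figure D4:**
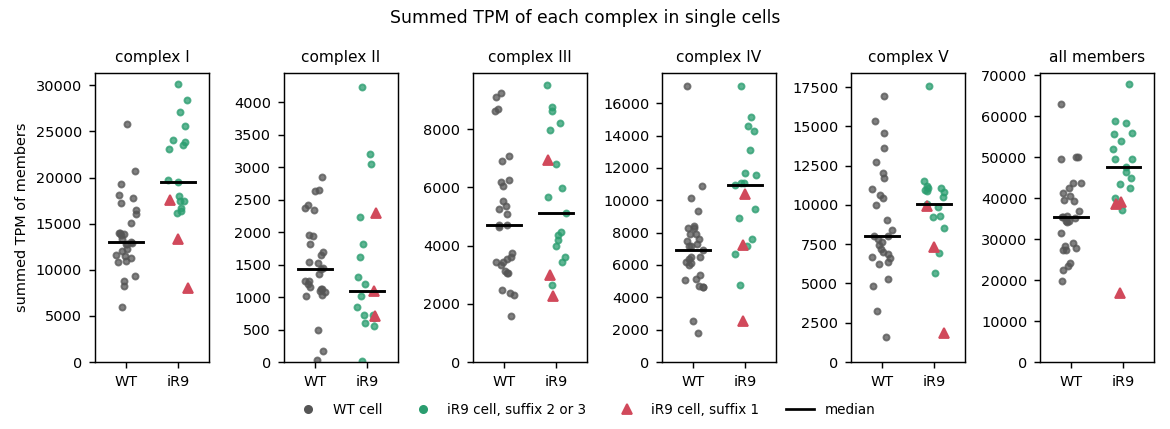
Summed TPM of the members of each complex and of all 85, per cell, for 29 WT cells, 16 iR9 cells of suffix 2 or 3 and 3 iR9 cells of suffix 1 (triangles), with a bar at each group's median. The medians over all members are 35362 TPM in WT and 47545 TPM in iR9 cells, and the suffix 1 cell at 16884 TPM, lowest of all, is the one with mast cell markers.

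The complexes varied together among WT cells and less so among iR9 cells. Over 29 WT cells, the Pearson r between the per-cell means of each pair of complexes lay between 0.60 and 0.86, with a median of 0.75. Over 19 iR9 cells the 10 pairs lay between -0.21 and 0.63, with a median of 0.10, and the highest were complex I with complex V (0.63) and complex IV with complex V (0.61). Cells of a group share their source, and the means within a cell share its library, so these are descriptions. In WT cells the number of genes per cell went with each complex (r of 0.63 to 0.81), and in iR9 cells, with a narrower range of that number, less so (-0.10 to 0.47). What part of the r values between complexes the number of genes accounts for was not tested.

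Short members tended to stand higher in iR9 cells. This split was chosen after the data were seen. With the median transcript length of each gene in GENCODE M21, the Spearman rho of the difference with length was -0.35 over 77 members and -0.05 over 6849 measured genes, and in the suffix 1 cells alone -0.11 for the members. The median difference was 0.56 for the 26 members under 600 nucleotides, among them Cox6a1 and Ndufa3, and -0.12 for the 24 members of at least 600 and under 1000. It was -0.71 for the 20 members of at least 1000 and under 2000 and -1.22 for the 7 members of 2000 and over, a thin class that holds Sdha. Other genes in the same classes had medians of -0.76, -0.74, -0.90 and -0.92, a smaller spread. The mean transcript length of a cell, weighted by TPM, had a median of 1744 nucleotides in WT (1424 to 2036) and 1489 nucleotides in iR9 cells (1388 to 1743), and its part in the members' differences was not tested.

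**Figure D5:**
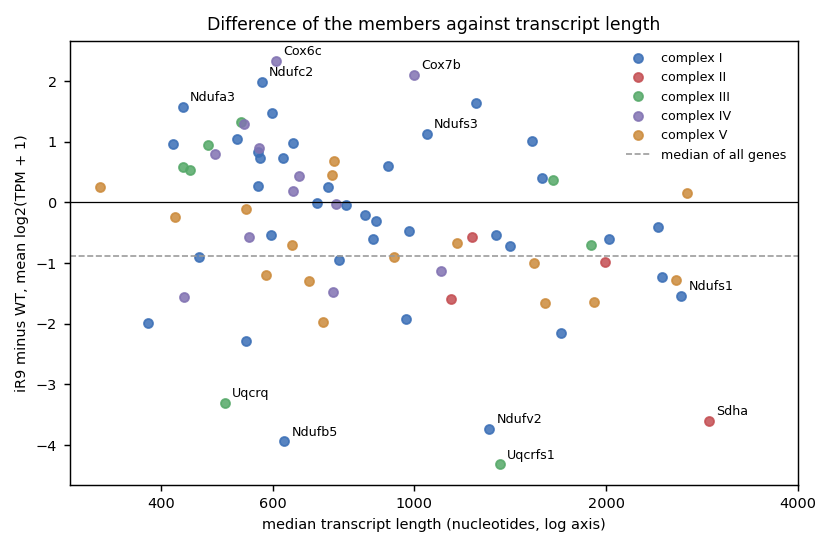
Difference in mean log2(TPM + 1), iR9 minus WT, of 77 measured members against the median length of their transcripts in nucleotides (log axis), coloured by complex, with the median of all measured genes dashed at -0.88. Members under 600 nucleotides have a median of 0.56 and those of at least 1000 and under 2000 one of -0.71, with wide scatter in each class.

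Promoters of these genes are known for sites of the factors NRF1, GABP of the ETS family, and YY1. Windows from 250 bases before to 50 after the start site, from RefSeq on GRCm38.p6, matched 70 of the 85 members. On either strand, the NRF1 motif, GCGC and TGCGC with any base between them, occurred in 24.3% of the members, 14.1% of the measured genes in the table and 5.19% of all its genes. CCGGAAG (ETS) occurred in 22.9%, 24.6% and 9.93%, and AANATGGC (YY1) in 25.7%, 12.3% and 6.96%. No matches of different motifs shared bases in the members (0 cases). Of the 19 matched members lower by at least 1, NRF1 letters occurred in 7, YY1 letters in 5 and ETS letters in 1. Of the 9 matched members higher by at least 1 they occurred in 1, 3 and 1. A match is a description of letters and not a bound site.

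The NRF1 matches of those 7 lower members and of the higher member Ndufs5 are shown for comparison, each on the transcript strand, 5′ to 3′, with the match in capitals. Where the motif lies on the opposite strand, the capitals are its reverse complement. Sdha had 3 such matches, of which the one 98 bases before the start is shown, and Ndufb4 had 3 as well.
Sdha, chr13:74350319-74350348, minus strand: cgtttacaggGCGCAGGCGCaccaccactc
Ndufa11, chr17:56717692-56717721, plus strand: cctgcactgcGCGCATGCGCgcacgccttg
Ndufa6, chr15:82354249-82354278, minus strand: ccgtggcaccGCGCGTGCGCacgctgaagg
Atp5g3, chr2:73911295-73911324, minus strand: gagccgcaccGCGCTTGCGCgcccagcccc
Ndufb4, chr16:37654428-37654457, minus strand: ccttgtgcgcGCGCAGGCGCacttcctgag
Atp5o, chr16:91931602-91931631, minus strand: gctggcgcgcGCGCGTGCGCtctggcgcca
Atp5g2, chr15:102671070-102671099, minus strand: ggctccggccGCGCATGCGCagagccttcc
Ndufs5, chr4:123718265-123718294, minus strand: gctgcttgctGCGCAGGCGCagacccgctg
Sdha and Ndufs5, with differences of -3.60 and 1.47, hold the same 10 letters, both 98 bases before the start site.

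Upstream stretches of the 2 lowest members without a match in the bases shown, Uqcrfs1 and Ndufv2, stand beside those of the 2 highest members in the table, Cox7b and Ndufc2, so that their sequences can be set against their differences of -4.32, -3.73, 2.1 and 1.99. They end where the first annotated exon begins and hold none of the 3 motifs, so no capitals occur. Cox7b holds a YY1 match after its start site, outside the stretch shown.
Uqcrfs1, chr13:30545363-30545566, minus strand: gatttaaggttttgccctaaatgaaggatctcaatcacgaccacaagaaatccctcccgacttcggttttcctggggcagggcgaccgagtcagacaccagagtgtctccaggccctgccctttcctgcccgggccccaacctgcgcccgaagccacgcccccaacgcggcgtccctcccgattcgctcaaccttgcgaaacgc
Ndufv2, chr17:66101560-66101809, minus strand: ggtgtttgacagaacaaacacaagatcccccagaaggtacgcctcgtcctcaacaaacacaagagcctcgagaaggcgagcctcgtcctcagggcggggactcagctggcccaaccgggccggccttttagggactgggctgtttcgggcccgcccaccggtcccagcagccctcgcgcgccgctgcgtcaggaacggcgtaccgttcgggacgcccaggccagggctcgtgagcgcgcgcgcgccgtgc
Cox7b, chrX:106015450-106015699, plus strand: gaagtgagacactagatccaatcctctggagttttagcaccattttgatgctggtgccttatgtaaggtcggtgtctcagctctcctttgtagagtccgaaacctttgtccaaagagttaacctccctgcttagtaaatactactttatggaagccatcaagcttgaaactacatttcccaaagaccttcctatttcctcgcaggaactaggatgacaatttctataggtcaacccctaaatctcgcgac
Ndufc2, chr7:97399753-97400002, plus strand: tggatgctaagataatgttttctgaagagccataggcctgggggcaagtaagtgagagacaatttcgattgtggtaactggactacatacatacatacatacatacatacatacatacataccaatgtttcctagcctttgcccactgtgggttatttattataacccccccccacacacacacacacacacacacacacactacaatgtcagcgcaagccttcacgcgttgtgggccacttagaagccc

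Genes that serve the same complexes were counted in the same way. Of 5 carriers and subunits whose symbols fall outside the rule, all had a lower mean in iR9 cells and 4 (80%) were lower by at least 1, against 44.5% of all genes. Atpif1, the inhibitor of the ATP synthase, had medians of 731 TPM in WT and 3.64 TPM in iR9 cells and a difference of -4.08. Cyc1, cytochrome c1 of complex III, differed by -2.11, with 10 TPM or more in 18 WT and 5 iR9 cells. Cycs, cytochrome c itself, differed by -1.45, with 24 and 13 cells. Of 7 ADP/ATP and phosphate carriers, porins and Ucp2, 5 (71.4%) were lower and 0 higher by at least 1. The ADP/ATP translocases Slc25a4 and Slc25a5 differed by -2.92 and -2.76, and the phosphate carrier Slc25a3 by 0.17.

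Among 39 measured assembly factors 7 (17.9%) were lower and 4 (10.3%) higher by at least 1, against 44.5% and 5.15% of all genes, with a median of -0.25. Ndufaf6, an assembly factor of complex I, was at 10 TPM or more in 8 WT and 0 iR9 cells, and Cox20, of complex IV, went the other way by 2.15, with 20 and 15 cells. Of 76 mitochondrial ribosomal protein genes 33 (43.4%) were lower and 4 (5.26%) higher by at least 1, with a median of -0.90, near that of all genes. Mrpl34 and Mrpl43 had the most negative differences, -3.63 and -3.61, and Mrpl27 the most positive, 1.63. Of 25 genes of protein import 15 (60%, against 44.5% of all genes) were lower and 0 (against 5.15%) higher by at least 1, with Tomm7 at -2.80 and Tomm5 at 0.93. Of 10 measured nuclear regulators 6 (60%) were lower and 0 higher by at least 1, a share of few genes. These included Nrf1, with 10 TPM or more in 8 WT and 0 iR9 cells, and Myc, with 10 and 0. Nrf1, Gabpb1 and Polg of this list stayed below 1 TPM in every iR9 cell. So did the assembly factors Ndufaf6, Selrc1, Cox11 and Bcs1l, and Mrpl43, Mrps6, Mrpl47 and Mrps25 of the mitochondrial ribosome. Polg, Bcs1l and Mrps25 were lower by less than 1 and the rest by at least 1. All of these genes counted as measured through WT cells alone, so a difference of at least 1 could only be a lower one. The lower counts of these lists include such genes, as does the share of all genes.

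Markers of other cell types moved with the groups as well. Over all measured genes 44.5% were lower and 5.15% higher by at least 1. Erythroid genes had a median summed level of 1.03 TPM in WT cells (0 to 3999.7) and of 775 TPM in iR9 cells (1.43 to 14699.6), with 4 of 4 measured genes higher by at least 1. Among these, Hba-a1 stayed below 1 TPM in every WT cell and counted as measured through iR9 cells alone. The defining gene Alas2 was at 0 in every cell, and Klf1 in every iR9 cell. Dendritic cell genes had medians of 301 TPM in WT cells (3.81 to 171094) and of 87.2 TPM in iR9 cells (1.15 to 11277), with 7 of 8 measured genes (87.5%) lower by at least 1. Of the 18 measured cell cycle genes 13 (72.2%) were lower by at least 1, with medians of 648 TPM (0 to 16523) and 128 TPM (0 to 1445). Some of the 18, such as Mcm2, Mcm6 and Rrm1, stayed below 1 TPM in every iR9 cell and counted as measured through WT cells alone. Myeloid genes had medians of 13.2 TPM (0 to 130843) and 1.43 TPM (0 to 3793), with 1 of 5 measured genes lower and 1 higher by at least 1, and Elane was at 0 in every cell. Mast cell and basophil genes had medians of 1.39 TPM (0 to 5665) and 0 TPM (0 to 245176), with 1 of 4 measured genes lower by at least 1. Of the B cell list 1 gene was measured, and Pax5, Ebf1 and Cd79a were at 0 in every cell. Their part in the differences of the members was not tested. The summed TPM without cycling WT cells, and without cells with myeloid or mast cell markers, is given above. No cell was left out for its dendritic cell, erythroid or B cell genes.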

How the data were processed

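Sorted single cells gave polyA RNA, which was amplified with a whole-transcriptome kit before tagging by transposase, per the labels' protocols. The authors deposited TPM values, 1 row per gene symbol. The submitters' processing notes list, without saying what each did, bcl2fastq 2.16.0.10, StringTie 1.3.4, HISAT2 2.1.0, SAMtools 0.1.19 and the build mm10. TPM keeps no depth, so no count test was used and no precision of a low value is given.

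The software was SciPy 1.17.1, pandas 2.3.3 and NumPy 2.4.6 under Python 3.11.15, and matplotlib 3.10.9. Left out were 27 rows whose symbol had become a calendar date, at most 0.540% of a library. No cell was removed and no doublet caller was run. The pseudocount was 1. Coordinates are from GENCODE M21 on GRCm38, which mm10 names, and promoters from RefSeq (GRCm38.p6). The rule for the members uses symbols and no measured value, but the rule and the other gene lists were set with earlier results of these data known. By rule, the named members were the 3 lowest and 2 highest differences and the highest mean of each complex, the restricted isoforms with their partners, the subunit c genes and Sdha to Sdhd, and up to 3 genes in each direction of the other lists. Members named beyond this, and marker genes singled out, were chosen after their values were seen. The functions were tested on simulated data. Alternatives covered pseudocounts, filters, scaling, the counting and suffixes of libraries, and sets of cells. The suffix 1 cells without mast cell markers and the classes of transcript length were added after seeing the data.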

Additional observations from a re-analysis of the deposited data

How the results depend on the processing

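No paired analysis was possible because no test was made, and cell numbers shared by groups mark no common source. The limits are 1 sample per group, unknown depth, fewer genes per iR9 cell and averaged iR9 libraries.

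The median difference of the members turned to 0.54 in the shared range of genes detected, 0.59 after quantile normalization, 0.063 without cells with cell cycle genes, 0.092 with medians over cells, 0.44 as a log2 ratio of mean TPM and 0.35 with the suffix 1 cells without mast cell markers. Complex I turned in these settings too, to 0.89, 0.84, 0.32, 0.14, 0.64 and 0.71. Complex III turned to -0.091 with suffix 1 alone, -0.13 with suffix 2 alone, -0.14 with medians over cells and -0.37 with suffix 1 without mast cell markers. Complex IV turned to -0.075 with TPM below 10 set to 0, and complex V to 0.16 as a ratio of mean TPM. The cause was not tested for any of these.

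The count lower by at least 1 moved from 22 to 34 with suffix 1 or suffix 2 alone, 10 after quantile normalization and 9 as a ratio of mean TPM. The count higher by at least 1 moved from 11 to 20 with suffix 1 alone, 17 with suffix 3 alone, 29 in the shared range, 27 after quantile normalization, 17 without cell cycle cells, 7 as a ratio of mean TPM and 29 with suffix 1 without mast cell markers. All genes had a median difference of -0.12 after quantile normalization and of -0.37 in the shared range, against -0.88. After quantile normalization 20.5% of them were lower and 20.6% higher by at least 1.

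Leaving out each cell in turn gave a median of -0.50 to -0.19, with 21 to 27 members lower and 9 to 14 higher by at least 1. For complexes I to V the medians ran from -0.45 to 0.17, -1.51 to -1.06, 0.20 to 0.60, 0.12 to 0.60 and -1.06 to -0.68. Complex I turned without the iR9 cell 33 (0.17) or the iR9 cell 8 (0.07).

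At TPM of at least 10, the median share of members found in iR9 cells was 59.5%, 25% (75% in WT), 62.5%, 75% and 58.8% for complexes I to V and 61.5% overall. At TPM above 0 it was 100% for complexes II and III and 91.7% for complex IV.

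Of the named members with a difference of at least 1, Cox7a2l turned to 1.14 after quantile normalization and 0.092 with suffix 1 without mast cell markers, which also turned Atp5g3 to 1.62, Cox5b to 2.00 and Cox7b to -1.13. Cox5b turned to 0.11 and Sdhb to 0.10 with medians over cells, and Cox5b to 0.24 as a ratio of mean TPM. Among members with smaller differences, with suffix 1 alone Cox7a2 went to -4.27, Sdhd to 2.31 and Atp5g1 to -1.48, and with suffix 1 without mast cell markers Uqcrh went to -1.62, Ndufa4 to 2.57, Cox8a to 2.23 and Cox4i1 to 0.83. Ndufs6 went to -0.30 with suffix 2 alone, Sdhc to 0.43 in the shared range and Uqcrc2 to 0.89 as a ratio of mean TPM.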
